A study of Mus musculus with 6 samples.

Results

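The genes *Cidea*, *Rprm*, *Pdlim1*, *Phospho1*, *Mdga2*, *Etv4* and *Tcf15* were followed through single-cell RNA-seq of the mouse main olfactory epithelium (MOE), as 7 of the 24564 genes that each library lists. They were chosen because their levels were high in ventral olfactory sensory neurons (OSNs) of the control libraries, so their ventral-to-dorsal difference in those libraries is described here without a test. The choice did not use the stage at which each gene comes on, the other cell types, or the values of the swap and *tetOP2* libraries. Genes high in the same neurons are found together more often, so which of them share a cell depends in part on the choice. The 6 libraries came from 10x Genomics capture of papain-dissociated cells. The 2 swap libraries carried both *Cbx*\* alleles, in which Cre replaces *Cbx1* (HP1β) with *Cbx5* (HP1α), together with Cre. The controls were unlike each other, since control replicate 1 was wild type at *Cbx* with Cre and control replicate 2 carried both *Cbx*\* alleles without Cre. The *tetOP2* library, from gg8-tTA; tetOP2iresGFP, expresses the P2 receptor gene *Olfr17* with GFP under a tTA that the *Gng8* promoter drives in immature OSNs, and its control carried gg8-tTA alone. These last groups hold 1 library each, so their values have no replicate check and no test. Ages were not given in the labels. The cell type label of every library is OSN and the series speaks of sorted cells, while the methods name no sort and the libraries held many other cell types.

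An OSN expresses a single olfactory receptor (OR) gene, and each receptor is used in a limited zone of the epithelium between a dorsal and a ventral border. Basal stem cells give rise to neuronal precursors, then to immature OSNs that choose a receptor and grow an axon, and then to mature OSNs that carry the transduction machinery. Transcription factors, guidance receptors and metabolic genes are known to differ between zones alongside the receptors. The 7 genes do unlike things. *Etv4* is an ETS factor induced by FGF signalling, and *Tcf15* is a bHLH factor of paraxial mesoderm. *Rprm* encodes reprimo, a p53-induced protein linked to cell cycle arrest. *Mdga2* encodes a membrane-anchored protein that binds neuroligins at synapses. *Cidea* encodes a lipid droplet protein of brown fat, *Phospho1* a phosphatase of phosphocholine and phosphoethanolamine that acts in bone mineralization, and *Pdlim1* a PDZ and LIM domain protein of the actin cytoskeleton.

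By the GENCODE annotation of GRCm38 the protein-coding genes *Rprm* (chr2:54084093-54085552, minus strand) and *Tcf15* (chr2:152143561-152149097, plus strand) share a chromosome, as do *Phospho1* (chr11:95824499-95832140, plus strand) and *Etv4* (chr11:101769742-101785371, minus strand). *Mdga2* spans chr12:66466060-67222549 and *Pdlim1* chr19:40221173-40271842, both on the minus strand. RefSeq promoter windows of GRCm38.p6, 250 bases before to 50 after the start, were matched for 4 of the 7 genes. The bases before the start are shown for *Rprm*, which peaked in immature OSNs, and for *Phospho1*, which reached its neuronal level late, because the results below set their courses apart. Capitals mark the GC box GGGCGG on either strand, overlaps included.
Rprm promoter, chr2:54085553.0-54085802.0, minus strand: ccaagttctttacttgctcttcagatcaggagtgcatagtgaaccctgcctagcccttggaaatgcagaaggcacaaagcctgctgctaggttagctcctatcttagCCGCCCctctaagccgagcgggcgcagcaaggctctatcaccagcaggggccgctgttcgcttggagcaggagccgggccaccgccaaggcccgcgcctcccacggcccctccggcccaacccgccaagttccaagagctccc
Phospho1 promoter, chr11:95824250.0-95824498.0, plus strand: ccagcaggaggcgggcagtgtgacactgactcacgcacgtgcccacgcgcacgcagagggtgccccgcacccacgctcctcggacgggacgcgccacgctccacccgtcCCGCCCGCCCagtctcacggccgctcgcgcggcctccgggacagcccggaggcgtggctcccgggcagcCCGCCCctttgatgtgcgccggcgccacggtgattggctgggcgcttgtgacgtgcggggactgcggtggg
The GC box was found 1 time in the *Rprm* window and 3 times in that of *Phospho1*, 6 times in that of *Pdlim1* and 0 times in that of *Mdga2*, and 35.7% of the 32851 promoters searched hold it. The Ebf motif (in 0.904% of promoters), the palindromic NFI motif (0.0365%) and its part TTGGCA (14.1%), which overlap, the homeodomain motif TAATTA (5.29%), the ETS motif CCGGAA (14.9%) and TATAAA (13.6%) had 0 matches in the 4 windows on both strands. The 4 windows were 63.3% or more G or C, against a median of 52.7% over all promoters.

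The libraries held 32005196 to 63277934 UMIs, and 2510 to 4884 cells each were kept. Mature OSNs numbered 587 to 1194 per library, with a median of 11268.5 to 12411 UMIs. All 8 markers of the mature list were present in them, with a summed level of 13379 to 16916 CPM, the UMIs of a gene scaled to the total UMIs of the cells summed, in the swap and control libraries, and sustentacular markers summed to 34.6 to 51.4 CPM there and to 192 and 185 CPM in the gg8-tTA control and *tetOP2*. *Cbx1* stood at 77.8 and 153 CPM in mature OSNs of the controls and at 0.971 and 3.08 CPM in those of the swap libraries, as the labels state. The sex-linked RNAs *Xist* and *Ddx3y* set swap replicate 1 apart from the other 3 swap and control libraries, with *Xist* at 1270 CPM over all cells against 0.299 to 0.629 CPM, so that swap and control differ in sex in 1 library. Between any 2 libraries at most 20 cell barcodes were shared.

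Along the neuron lineage the 7 genes came on at different stages, and none of them followed the same course as all the others. *Rprm*, *Etv4* and *Tcf15* peaked before maturity, *Cidea* began early and was highest in mature OSNs, and *Phospho1*, *Mdga2* and *Pdlim1* reached their neuronal level at the end. Cells of each stage were summed per library, and consecutive stages of the swap and control libraries were compared with the library as a block. Between the named stages lay a pair of clusters that could not be named and were added as stages after the data had been seen. The *Tex15* cluster scored highest for the early immature list, and the *Calb2* cluster scored highest for the mature list while a late immature marker was among its leading genes.

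*Rprm* was present from the stem cells onward. Its level in globose basal cells was 75.6 and 140 CPM in the controls and 80.6 and 63.0 CPM in the swap libraries. In neuronal precursors it was 282 and 239 CPM in the controls and 129 and 117 CPM in the swap libraries. This step passed the test (log2 fold change 1.16 ± 0.33 SE, edgeR adjusted p = 0.0051), as did 47.1% of the 11958 genes tested, though not for *Rprm* without control replicate 1 (edgeR adjusted p = 0.120). *Rprm* in late immature OSNs reached 590 and 539 CPM in the controls and 467 and 351 CPM in the swap libraries, the highest level of any cell type in these libraries. It rose again between precursors and late immature OSNs (1.26 ± 0.28, edgeR adjusted p = 5.86e-04, with 47.9% of genes called). In mature OSNs it was 40.7 and 37.3 CPM in the controls, 59.4 CPM in swap replicate 1 and 6.80 CPM in swap replicate 2. It fell by 3.64 on the log2 scale (SE 0.29, edgeR adjusted p = 7.41e-10) from late immature to mature OSNs, and the ranges of these last 2 stages did not overlap.

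*Etv4* and *Tcf15*, the transcription factors of the set, were both at or near 0 in precursors and higher in the *Tex15* cluster after them. *Etv4* was already found in globose basal cells, at 5.66 and 5.71 CPM in the controls and 5.62 and 2.07 CPM in the swap libraries, and it fell by 4.70 on the log2 scale into precursors (SE 1.11, edgeR adjusted p = 0.00109). It had 1 UMI in the precursors of the 4 libraries and 3.16 to 7.98 CPM in the *Tex15* cluster, and this step passed the test (4.97 ± 1.08, edgeR adjusted p = 6.58e-04, with 37.2% of genes called). It went on to 28.2, 21.1, 18.4 and 17.4 CPM in late immature OSNs of control replicates 1 and 2 and swap replicates 1 and 2, which is a rise from the *Tex15* cluster (1.74 ± 0.47, edgeR adjusted p = 0.00452, with 30% of genes called) that was not called without control replicate 1 (edgeR adjusted p = 0.0557). In mature OSNs it was 7.30, 4.15, 5.99 and 0.815 CPM in the same order, and it fell by 2.06 on the log2 scale from late immature OSNs (SE 0.40, edgeR adjusted p = 1.74e-04). *Tcf15* peaked earlier than *Rprm* and *Etv4*. It stood at 12.9 and 19.7 CPM in the *Tex15* cluster of the controls and at 12.4 and 31.4 CPM in that of the swap libraries, against 0 to 1.17 CPM in precursors. It rose by 4.75 ± 0.52 on the log2 scale into that cluster (edgeR adjusted p = 1.87e-07) and fell by 2.69 (SE 0.36, edgeR adjusted p = 3.02e-06) into late immature OSNs. In the gg8-tTA libraries, where a cluster could be named early immature, *Tcf15* was at 34.2 CPM there in the control and 14.4 CPM in *tetOP2*, and at 4.32 and 3.64 CPM in their late immature OSNs. From late immature to mature OSNs it rose again, from 1.73 to 4.81 CPM up to 3.89 to 10.3 CPM (1.42 ± 0.34, edgeR adjusted p = 0.00127), over ranges that overlap between libraries.

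*Cidea* was at 1.03 to 2.07 CPM in globose basal cells and at 16.6, 7.03, 8.84 and 7.14 CPM in precursors of control replicates 1 and 2 and swap replicates 1 and 2. The step passed the test (2.84 ± 0.57, edgeR adjusted p = 2.06e-04). The *Tex15* cluster held 16.8, 7.10, 11.1 and 7.41 CPM, and its difference from precursors was not called (0.10 on the log2 scale). In the same order it was at 42.4, 26.7, 19.2 and 9.62 CPM in late immature OSNs, at 128, 67.7, 80.4 and 90.7 CPM in the *Calb2* cluster and at 264, 162, 223 and 125 CPM in mature OSNs. In each library the level was higher at each of these 3 stages than at the one before. It rose by 2.00 ± 0.17 on the log2 scale into the *Calb2* cluster (edgeR adjusted p = 1.01e-08, with 26.9% of genes called) and by 1.24 ± 0.14 from there to mature OSNs (edgeR adjusted p = 2.62e-06, with 11.2% of genes called).

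*Phospho1* was barely detected before the *Calb2* cluster. Late immature OSNs held 2.94, 1.29, 1.87 and 1.85 CPM in control replicates 1 and 2 and swap replicates 1 and 2, the *Calb2* cluster 55.7, 32.3, 41.8 and 42.0 CPM, and mature OSNs 175, 102, 143 and 115 CPM. The groups of values did not overlap between stages. The change from late immature to mature OSNs was 6.24 ± 0.16 on the log2 scale (edgeR adjusted p = 1.90e-17). *Mdga2* had 0 UMIs in the precursors of all 4 libraries, where the limit for a count of 0 over the 4 libraries is 0.489 CPM, and 1.14 CPM over all late immature OSNs and 16.3 CPM over all mature OSNs. Against that limit it was at least 2.33-fold higher in late immature and at least 33.3-fold higher in mature OSNs. In mature OSNs it was at 18.5 and 23.6 CPM in the controls and at 8.74 and 8.70 CPM in the swap libraries. Its step from the *Calb2* cluster to mature OSNs (1.11 ± 0.37, edgeR adjusted p = 0.0350) stayed called in 2 of 7 alternatives and in none that left out a library (edgeR adjusted p = 0.0607 to 0.159).

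*Pdlim1* was present at both ends of the lineage and nearly absent between them. In globose basal cells it was at 71.0, 45.7, 98.8 and 59.9 CPM in control replicates 1 and 2 and swap replicates 1 and 2. In late immature OSNs it was at 0.865, 0.431, 1.02 and 0.740 CPM, and in mature OSNs at 75.2, 24.1, 34 and 16.9 CPM. It fell by 4.12 on the log2 scale (SE 0.35, edgeR adjusted p = 3.16e-09) into precursors and rose by 5.78 ± 0.37 from late immature to mature OSNs (edgeR adjusted p = 3.00e-11). All 7 genes were called between late immature and mature OSNs, 5 higher and 2 lower, in a step where 41.4% of all genes were called.

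**Figure D1:**
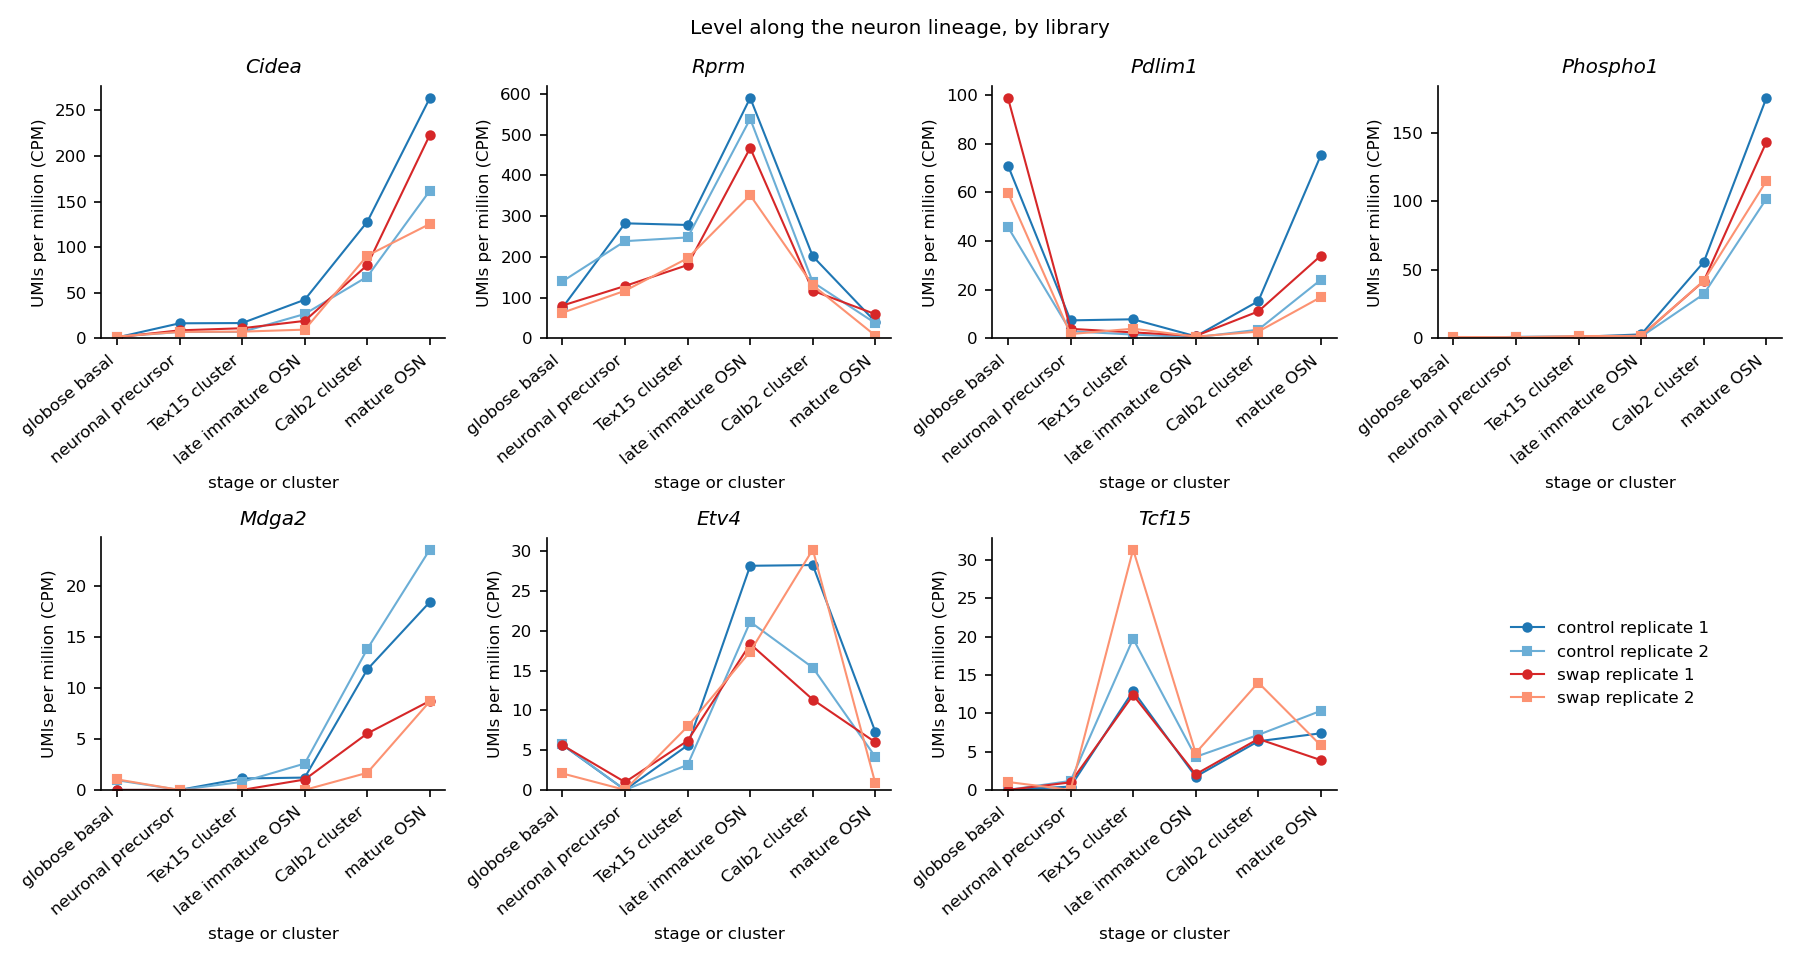
Level of each gene in CPM (vertical axis) over the stages of the neuron lineage (horizontal axis), with 1 line for each of the 4 swap and control libraries and no error bars. *Rprm* peaks in late immature OSNs at 351 to 590 CPM, *Tcf15* in the *Tex15* cluster at 12.4 to 31.4 CPM, and *Pdlim1* is at 1.02 CPM or less in late immature OSNs between higher levels at both ends.

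Receptors were placed on a dorsal to ventral scale to ask whether a gene differed with the chosen receptor. The chosen receptor of a cell was the OR with most UMIs, and its position was the mean marker score of the control OSNs that chose it, which sets the nuclear factor I genes *Nfix*, *Nfib* and *Nfia* with *Nrp2* and *Ncam2* as ventral against *Sema3f*, *Robo2*, *Acsm4* and *Nqo1* as dorsal. No swap or control library was scored with its own cells. A scored receptor counts as ventral here when its position is among the top 25% of those scored, otherwise as dorsal. OSNs whose receptor had no position are in neither class. Of mature OSNs with a receptor, 41.1% and 35.3% were classed in the controls and 40.4% and 33.7% in the swap libraries. The gg8-tTA control had 50.4% classed and *tetOP2* 80.8%. Mature OSNs with a ventral receptor numbered 132 and 118 in the controls, 30 and 48 in the swap libraries, 71 in the gg8-tTA control and 42 in *tetOP2*.

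In late immature OSNs, *Cidea*, *Rprm* and *Etv4* were already higher in cells with a ventral receptor, at a stage where *Phospho1*, *Mdga2*, *Pdlim1* and *Tcf15* were too low to be tested by receptor. This comparison was added after the data had been seen, and since the choice of the genes named ventral neurons of the controls without a stage, the fit to the swap libraries alone is the one that rests on other values. *Cidea* in cells with a dorsal and a ventral receptor was at 13.6 and 103 CPM in swap replicate 1 and at 3.14 and 33.2 CPM in swap replicate 2, the last from 4 UMIs in 9 cells. The swap libraries alone gave a log2 fold change of 2.93 ± 0.48 (edgeR adjusted p = 9.69e-07), where 0.709% of 6069 genes were called, 0.428% as higher. *Cidea* met the filter on low counts there through its ventral sums, where it is high, which favours a call as higher. With 1 residual degree of freedom the calls of this fit lean on the variance shared across genes. In the controls *Cidea* was at 19.4 and 159 CPM in replicate 1 and at 0 and 62.2 CPM in replicate 2, with 0 of 38 dorsal-receptor cells holding a UMI of it in the latter. It was higher with a ventral receptor in all 6 libraries, at 80.3 against 14.8 CPM in the gg8-tTA control and 107 against 14.5 CPM in *tetOP2*.

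*Rprm* differed by less, on a higher level. With a dorsal and a ventral receptor it was at 445 and 1316 CPM in swap replicate 1, at 393 and 548 CPM in swap replicate 2, at 493 and 1077 CPM in control replicate 1 and at 449 and 808 CPM in control replicate 2. The gg8-tTA control gave 646 and 1198 CPM and *tetOP2* 361 and 1768 CPM. The ranges of the classes overlapped only through the ventral value of swap replicate 2, which lies below the dorsal value of the gg8-tTA control. The log2 fold change was 1.12 ± 0.17 in the swap libraries alone (edgeR adjusted p = 5.27e-08). As a description, since the controls chose the genes, it was 1.09 over the 4 swap and control libraries, where 1.84% of 6422 genes were called, 0.919% as higher. *Etv4* was higher with a ventral receptor in 5 of 6 libraries, at 82.3 against 15.4 CPM and 66.4 against 26.7 CPM in the swap libraries. In control replicate 2 it went the other way, with 31.1 against 51.2 CPM. Its log2 fold change was 1.94 ± 0.45 in the swap libraries (edgeR adjusted p = 0.00446) and, as a description, 1.40 over all 4. For *Etv4* too the filter on low counts took in the ventral sums, where it is high, which favours a call as higher. The call of *Etv4* over all 4 stayed in 5 of 9 alternatives, at 1.09 to 1.94, the highest being that of the swap libraries alone. Those of *Cidea* and *Rprm* stayed in 9 of 9.

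**Figure D2:**
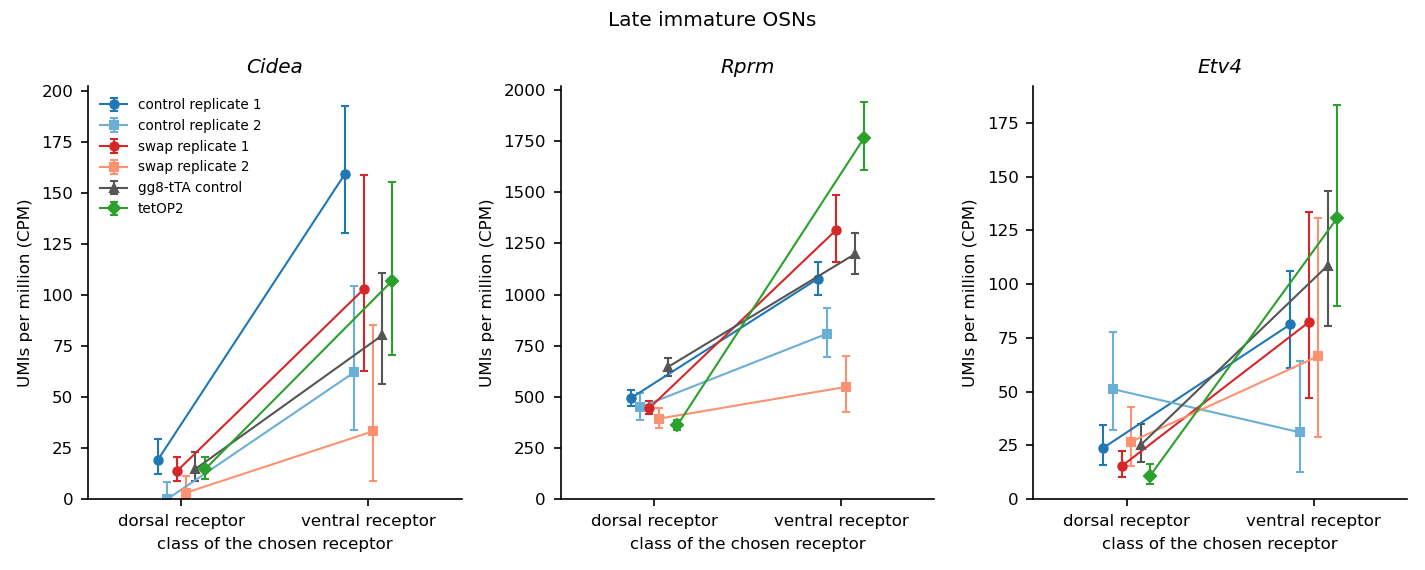
Level in CPM (vertical axis) of *Cidea*, *Rprm* and *Etv4* in late immature OSNs by class of the chosen receptor (horizontal axis), with 1 line per library and 95% Poisson intervals that cover counting error only. *Cidea* and *Rprm* are higher with a ventral receptor in all 6 libraries, *Etv4* in 5 of 6. The control libraries chose the genes, so their direction is a description.

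In mature OSNs the difference between receptor classes that chose the genes had these sizes in the controls, given as a description. The log2 fold change of ventral over dorsal was 1.55 for *Cidea*, 1.26 for *Rprm*, 2.02 for *Pdlim1*, 0.96 for *Phospho1*, 2.03 for *Mdga2*, 2.27 for *Etv4* and 2.35 for *Tcf15*. Split into 4 equal bins of receptors, *Cidea* was at 64.1, 140, 303 and 520 CPM from dorsal to ventral in control replicate 1 and at 31, 79.3, 216 and 384 CPM in control replicate 2. *Phospho1* climbed in the same way, at 79.8, 130, 197 and 267 CPM and at 28.9, 80.3, 136 and 186 CPM. *Rprm* did not climb evenly in control replicate 2, where it was at 7.23, 12.2, 93.1 and 83.7 CPM.

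In the swap libraries, which the choice did not use, 4 of the genes were called higher with a ventral receptor. Of the 8635 genes tested between receptor classes there, 0.440% were called, 0.301% as higher with a ventral receptor, and *Cidea*, *Pdlim1*, *Phospho1* and *Mdga2* were among them. *Cidea* was at 618 CPM with a ventral and 230 CPM with a dorsal receptor in swap replicate 1, and at 303 and 133 CPM in swap replicate 2 (log2 fold change 1.32 ± 0.11, edgeR adjusted p = 8.29e-06). *Pdlim1* was at 75.2 and 27.1 CPM and at 55.5 and 18.3 CPM (1.54 ± 0.24, edgeR adjusted p = 0.00698). *Phospho1* was at 223 and 127 CPM and at 194 and 120 CPM (0.75 ± 0.13, edgeR adjusted p = 0.0155). *Mdga2* was at 33.4 and 9.21 CPM and at 35.9 and 5.33 CPM (2.34 ± 0.40, edgeR adjusted p = 0.0137). In each of these 4 genes both ventral values lay above both dorsal values. *Mdga2* met the filter on low counts through its ventral sums, where it is high, which favours a call as higher. It was also called without that filter. With 1 residual degree of freedom these calls lean on the variance shared across genes, and without the library block none of the 4 was called. The call of *Phospho1* was also lost by DESeq2 (adjusted p = 0.799) and with receptor positions from all 3 control libraries (edgeR adjusted p = 0.119), and DESeq2 gave no adjusted p for *Pdlim1* and *Mdga2*.

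*Rprm* did not pass in the swap libraries (1.39 ± 0.31, edgeR adjusted p = 0.0593), and its replicates went opposite ways. In swap replicate 1 it was at 228 CPM with a ventral and 67.6 CPM with a dorsal receptor. In swap replicate 2 it was at 4.89 CPM from 3 UMIs and 11.7 CPM from 35 UMIs. It was called under 4 alternatives, with log2 fold changes of 1.21 to 3.35, the largest of them with a wider ventral class. *Etv4* and *Tcf15* were too low for the test. *Etv4* was at 22.3 and 5.12 CPM in swap replicate 1 and at 3.26 and 0.666 CPM in swap replicate 2, and *Tcf15* at 2.78 and 4.09 CPM and at 4.89 and 4.0 CPM, with intervals that overlapped between classes for *Tcf15* in both.

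**Figure D3:**
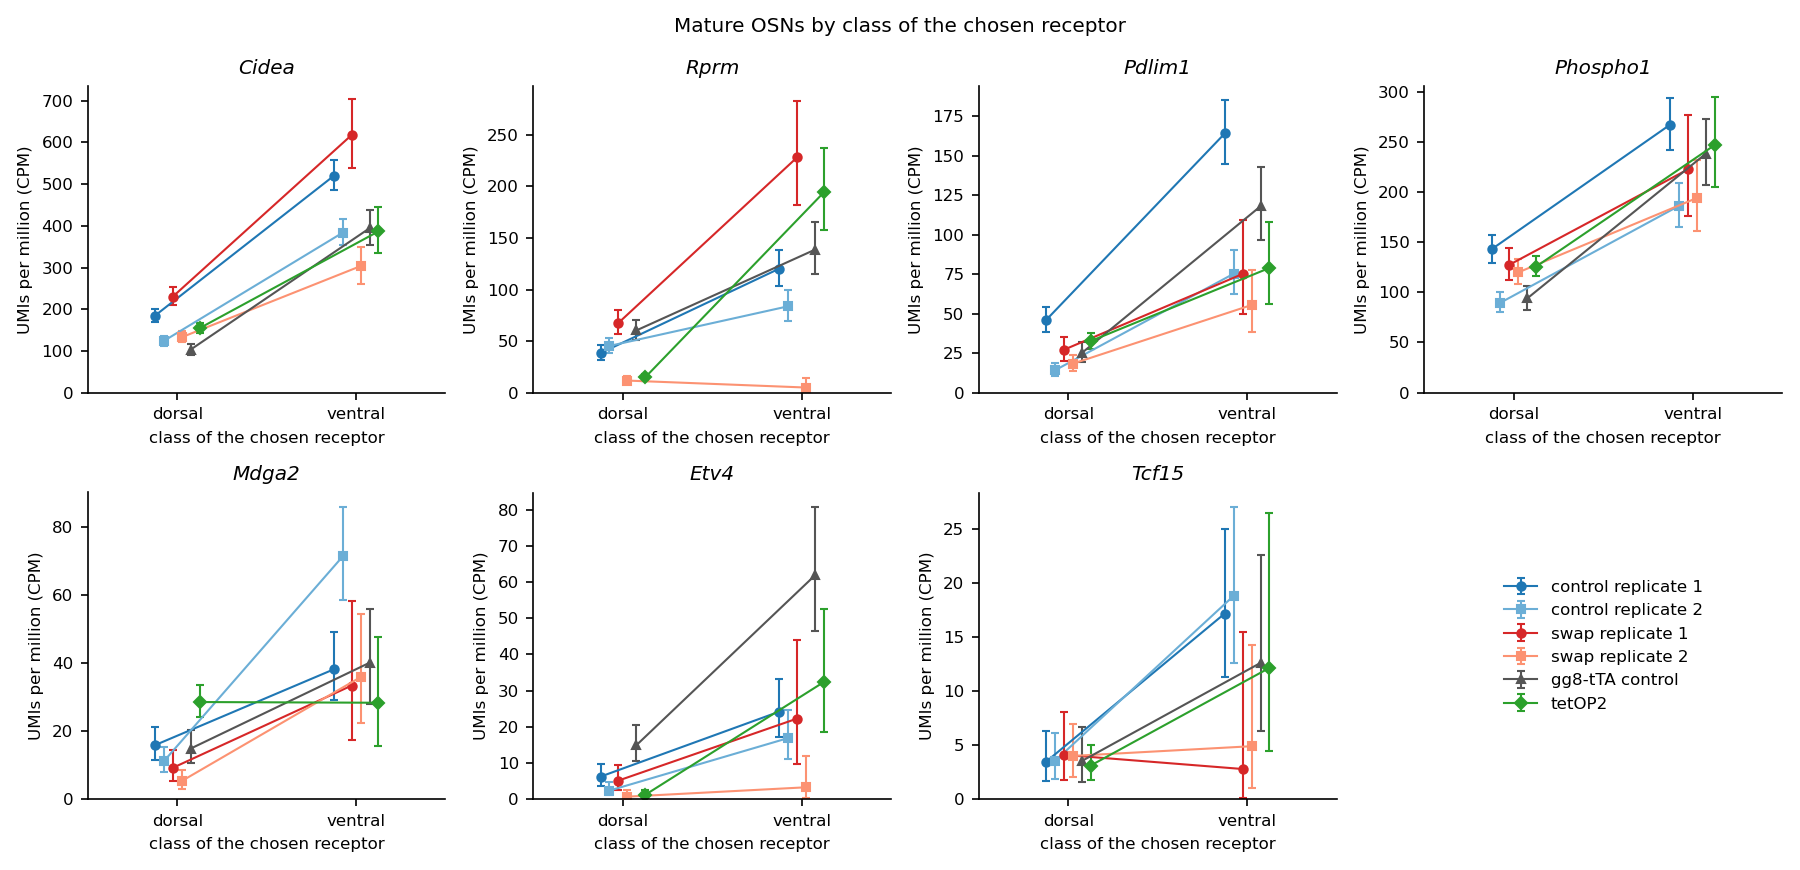
Level in CPM (vertical axis) of each gene in mature OSNs with a dorsal or a ventral receptor (horizontal axis), with 1 line per library and 95% Poisson intervals that cover counting error only. The ventral value is the higher for *Cidea*, *Pdlim1*, *Phospho1* and *Etv4* in all 6 libraries. The control libraries chose the genes, so their direction is a description. *Rprm* in swap replicate 2, *Tcf15* in swap replicate 1 and *Mdga2* in *tetOP2* do not follow, the dorsal class of *tetOP2* being mostly *Olfr17* cells.

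**Figure D4:**
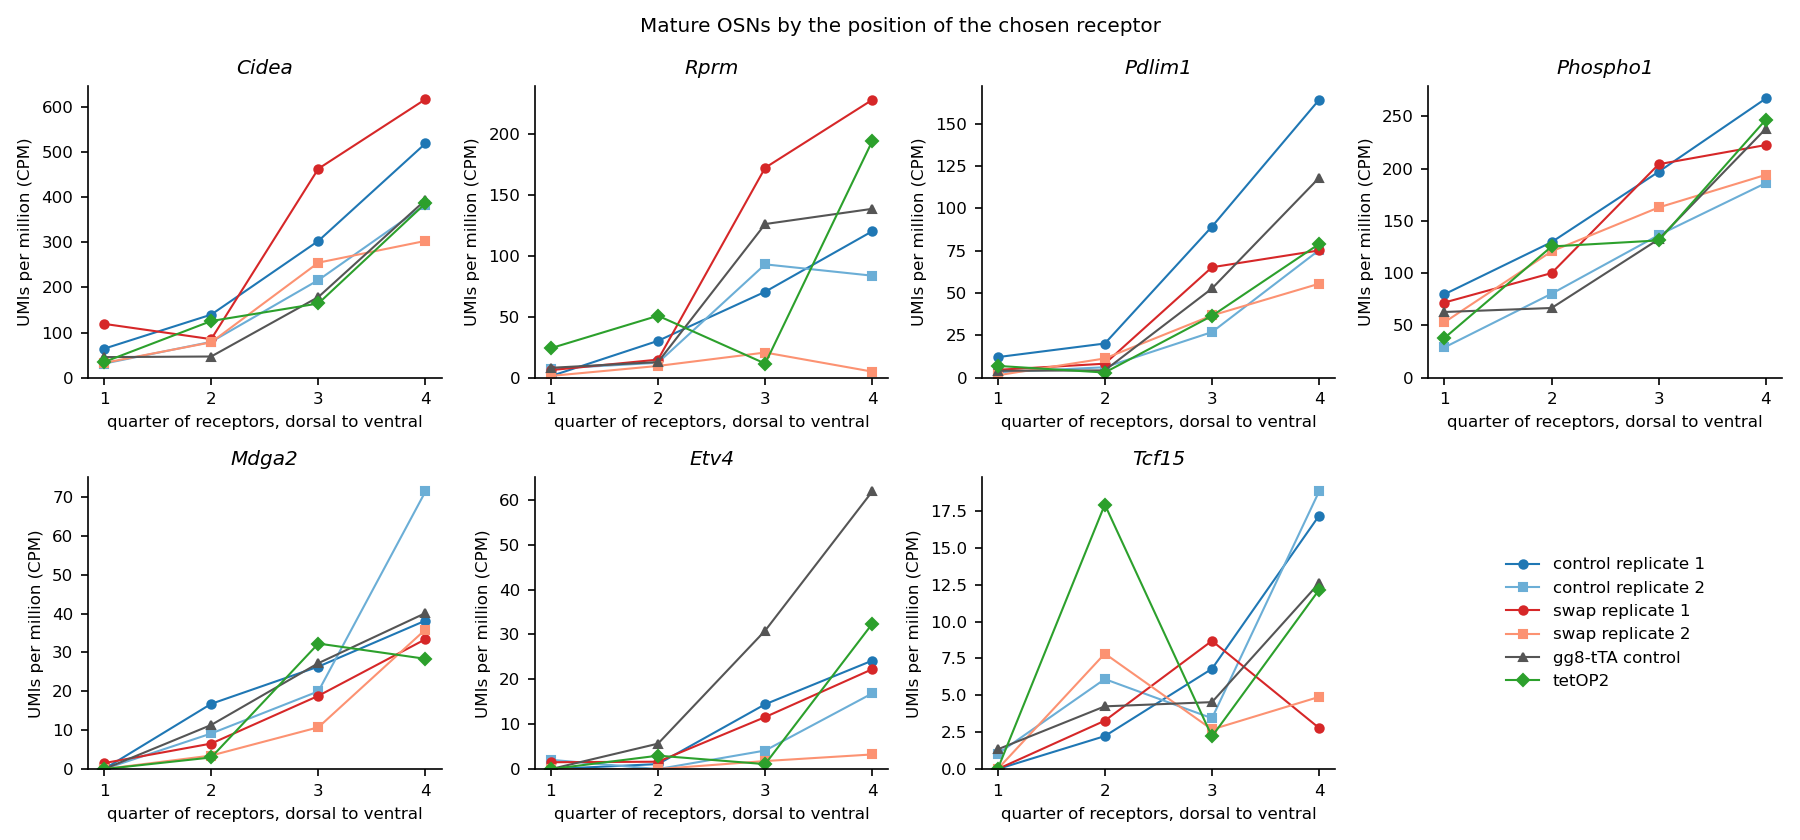
Level in CPM (vertical axis) of each gene in mature OSNs by bin of receptors, 4 equal bins from dorsal to ventral (horizontal axis), with 1 line per library and no error bars. *Cidea* reaches 303 to 618 CPM in the most ventral bin, and *Rprm* in *tetOP2* dips to 11.5 CPM in the third, the bin of *Olfr17*.

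Whether the genes changed with the genotype was asked in all mature OSNs and within each receptor class. Over all mature OSNs edgeR called 0.00% of 12206 genes, with 310 genes at an unadjusted p under 0.05, and DESeq2 called 167 genes. *Mdga2* was the member with the clearest difference, at 18.5 and 23.6 CPM in the controls and 8.74 and 8.70 CPM in the swap libraries without overlap. Its log2 fold change was -1.28 ± 0.27 (edgeR adjusted p = 0.447), and DESeq2 called it (adjusted p = 0.0205). The shares of cells by receptor class differ between the genotypes, as counted above, and their part in this value was not tested. Among cells with a dorsal receptor *Mdga2* was at 15.9 and 11.2 CPM in the controls and 9.21 and 5.33 CPM in the swap libraries (-0.95 ± 0.43, edgeR adjusted p = 1.00), and with a ventral receptor at 38.2 and 71.4 CPM and 33.4 and 35.9 CPM (-0.64 ± 0.42, edgeR adjusted p = 1.00).

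*Cidea* in dorsal-receptor cells was at 185 and 124 CPM in the controls and 230 and 133 CPM in the swap libraries (0.20 ± 0.34, edgeR adjusted p = 1.00), over ranges that overlap. In ventral-receptor cells it was at 520 and 384 CPM against 618 and 303 CPM (0.01 ± 0.33, edgeR adjusted p = 1.00), where the swap values lie on both sides of the controls. No member was among the 0.179% of 10078 genes called with a dorsal receptor or the 0.219% of 8208 genes called with a ventral one. *Tcf15* with a ventral receptor was at 17.2 and 18.8 CPM in the controls and 2.78 and 4.89 CPM in the swap libraries, from 1 and 3 UMIs, without overlap (-2.10 ± 0.68, edgeR adjusted p = 1.00). *Pdlim1* there was at 164 and 75.3 CPM against 75.2 and 55.5 CPM (-0.90 ± 0.40, edgeR adjusted p = 1.00). *Rprm* in mature OSNs depended on the library. With a single swap library left, taken to vary as the controls do, its values were as follows. Without swap replicate 1 its log2 fold change over all mature OSNs was -2.54 (edgeR adjusted p = 0.0139) and with a ventral receptor -4.32 (edgeR adjusted p = 4.39e-06), and with all 4 libraries it was -0.28 ± 0.93 and 0.07 ± 0.79. In late immature OSNs *Rprm* was at 467 and 351 CPM in the swap libraries, both below the 539 to 611 CPM of the other libraries. In precursors it was at 129 and 117 CPM in the swap libraries against 282 and 239 CPM in the controls, while in globose basal cells the values overlapped. No test of genotype was made at these stages. Late immature markers in mature OSNs summed to 1135 CPM in swap replicate 2. They summed to 1903 CPM in swap replicate 1 and to 1633 and 1126 CPM in the controls. The part of maturity in the *Rprm* values was not tested.

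Counted as cells with a UMI after thinning each cell to 3000 UMIs, *Cidea* was found in 26.9% and 23.7% of dorsal-receptor OSNs in the controls and 31% and 17.6% in the swap libraries. Sustentacular cells, which should lack it, gave 0.616% to 2.79% over the 6 libraries, at a median of 12575 to 19624 UMIs against 11268.5 to 12411 in mature OSNs. Before thinning *Cidea* was found in 45.7% of these cells in control replicate 1. *Mdga2* was found in 4.70% and 3.38% in the controls and 2.98% and 0.410% in the swap libraries. An exact permutation test of 2 against 2 libraries cannot go below p = 0.333, the value of *Mdga2* and *Tcf15*, and the other 5 genes had p of 0.667 or 1.

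A score of the same dorsal and ventral markers was also taken per cell, and cells above the 75th percentile of the controls were called the ventral range. It is a range and not a cell type, and 42 to 85 cells per library lie within 0.1 of its border. It held 23.1% and 26.6% of mature OSNs in the controls, 17.7% and 19.4% in the swap libraries, 25.1% in the gg8-tTA control and 36.2% in *tetOP2*. Among cells whose receptor was dorsal, *Cidea* was at 354 CPM in the ventral range and 140 CPM in the rest in control replicate 1, and at 288 and 78.5 CPM in control replicate 2. The swap libraries gave 502 and 177 CPM and 317 and 86.8 CPM, and the gg8-tTA control 222 and 73.1 CPM. *Pdlim1* went the same way in these 5 libraries, at 93.5 against 14.1 CPM and 62.0 against 7.20 CPM in the swap libraries. *Rprm* in the ventral range of dorsal-receptor cells was at 240 CPM in swap replicate 1 and 34.3 CPM in swap replicate 2, against 33.7 and 5.93 CPM in the rest. So within the dorsal class these 3 genes were higher in the cells with more of the ventral markers in each of the 5 libraries. The control libraries chose the genes, so their values are a description, and of these 5 only the 2 swap libraries rest on other values. In *tetOP2* cells with a dorsal receptor other than *Olfr17* the values of *Cidea* were 230 and 94.0 CPM. Those of *Rprm* were 40.3 and 42.2 CPM. The dorsal class is wide, and the position of the receptor was not held fixed within it.

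In *tetOP2*, 369 of 632 mature OSNs had chosen *Olfr17*, with a median of 100 *Olfr17* UMIs, and 251 had chosen another receptor. *Olfr17* itself lay in the third bin of receptors, counted from the dorsal end, and so in the dorsal class. The cells that chose it split by gene. *Rprm* was at 7.62 CPM in them (95% Poisson interval 5.18 to 10.8) and at 63.5 CPM (54.8 to 73.3) in the other *tetOP2* OSNs. *Etv4* was at 0.737 CPM (0.152 to 2.15) and 9.46 CPM (6.28 to 13.7), and *Tcf15* at 2.46 CPM (1.18 to 4.52) and 10.8 CPM (7.39 to 15.3). *Mdga2* was the other way round, at 34.2 CPM (28.7 to 40.3) with *Olfr17* and 13.2 CPM (9.37 to 18.0) with other receptors. *Cidea* was at 162 CPM (150 to 175) and 166 CPM (152 to 181), and *Pdlim1* at 36.1 CPM (30.5 to 42.5) and 28.4 CPM (22.6 to 35.1), with intervals that overlap. These intervals, like the others given with a level, cover counting error in 1 library only.

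Set beside the gg8-tTA control OSNs that chose a receptor of the same bin as *Olfr17* (91 cells), *Cidea* was at 162 against 179 CPM (155 to 206) and *Phospho1* at 128 against 133 CPM (112 to 156). *Mdga2* was at 34.2 against 27.2 CPM (18.4 to 38.9). *Rprm* lay apart, at 7.62 against 126 CPM (106 to 149), as did *Etv4*, at 0.737 against 30.9 CPM (21.4 to 43.1). *Tcf15* did not, at 2.46 CPM (1.18 to 4.52) against 4.54 CPM (1.47 to 10.6). In the libraries without the transgene *Olfr17* was chosen by 4 and 5 cells of control replicates 1 and 2. It was chosen by 1 cell of the gg8-tTA control and 2 of swap replicate 2. None of these 12 cells held a UMI of *Rprm*. Of all mature OSNs of these libraries, 10.1%, 10.5%, 18.4% and 2.96% held one before thinning, in the same order, so 12 cells are too few to tell.

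The cell's own marker score separated the members further. Among *Olfr17* cells in the ventral range (147 cells) and the rest (222 cells), *Cidea* was at 269 CPM (244 to 295) and 87.8 CPM (76.4 to 101). Among the other *tetOP2* OSNs it was at 289 and 110 CPM, and in the gg8-tTA control at 305 and 92.1 CPM. *Pdlim1* was at 57.8 against 20.9 CPM and *Mdga2* at 64.9 against 12.5 CPM within *Olfr17* cells. In these cells *Cidea*, *Pdlim1* and *Mdga2* differed although the chosen receptor was the same, with intervals that did not overlap. *Phospho1* (131 against 125 CPM, intervals 114 to 150 and 112 to 141) and *Rprm* (7.15 against 7.95 CPM, intervals 3.69 to 12.5 and 4.78 to 12.4) had overlapping intervals within *Olfr17* cells, while with other receptors in the same library *Phospho1* was at 203 and 135 CPM and *Rprm* at 109 and 42.8 CPM. As shares of thinned cells, *Rprm* was found in 2.17% of *Olfr17* cells (exact Clopper-Pearson interval 0.941% to 4.23%) and 11.2% (7.54% to 15.7%) of the others. In sustentacular cells of that library it was found in 3.76%, so the *Olfr17* share was no higher than theirs. Whether *Rprm* in sustentacular cells is carried-over RNA was not tested. *Etv4* was found in 0 of 369 *Olfr17* cells after thinning and in 2.79% of the others.

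**Figure D5:**
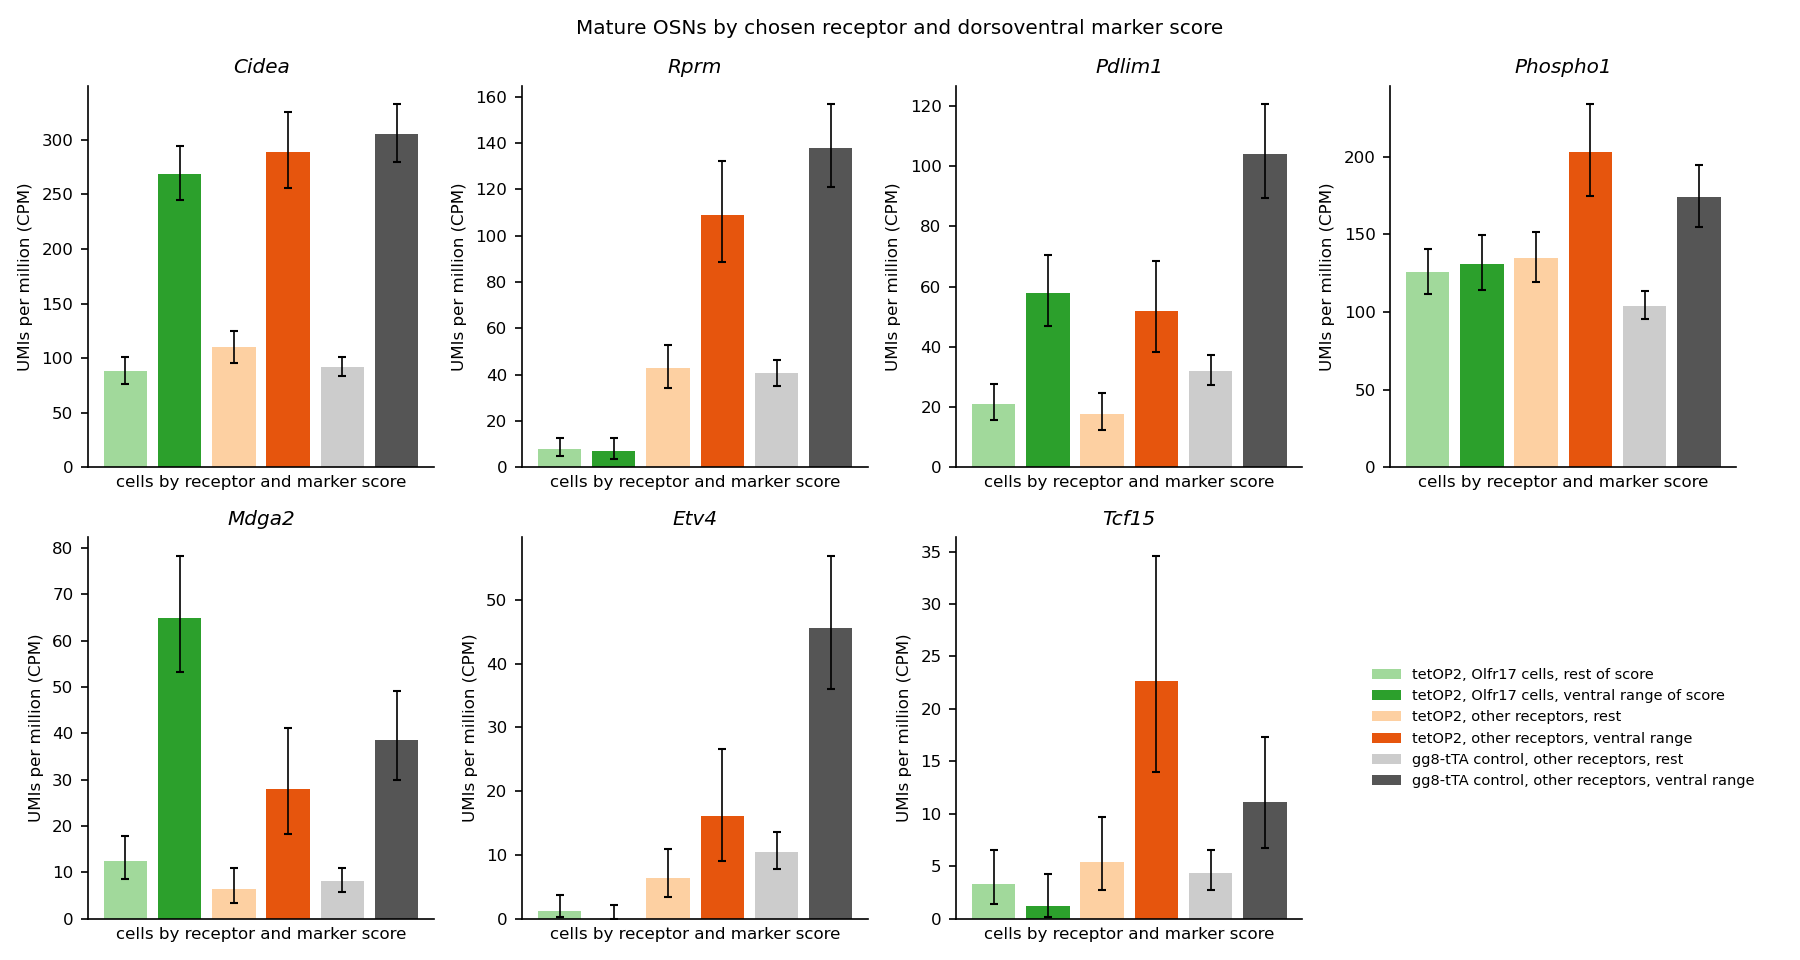
Level in CPM (vertical axis, from 0) of each gene in 6 groups of mature OSNs by chosen receptor and marker score, as bars with 95% Poisson intervals that cover counting error only, with 1 library for *tetOP2* and 1 for its control. *Cidea*, *Pdlim1* and *Mdga2* are higher in the ventral range with *Olfr17* as with other receptors, while *Rprm* stays at 7.15 and 7.95 CPM in *Olfr17* cells.

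Which of the genes shared a cell was counted after thinning, against the number given by the product of their shares. *Cidea* and *Phospho1* were found together in 183 cells of control replicate 1 against 120 from the product, in 110 against 70.3 in control replicate 2, and in 84 against 58.2 and 83 against 53.5 in the swap libraries. *Cidea* and *Pdlim1* were together in 90 cells against 44.9, 38 against 16.6, 33 against 15.7 and 20 against 7.61 in the same order. *Rprm* and *Pdlim1* were found together in 6 cells against 7.02 and 3 against 3.14 in the controls, 6 against 3.98 and 0 against 0.497 in the swap libraries, 3 against 5.73 in the gg8-tTA control and 8 against 3.28 in *tetOP2*. This pair was thus above the product in 2 of 6 libraries. Of the 4 swap and control libraries it was above the product only in swap replicate 1, while both *Cidea* pairs were above it in all 4 of these. Genes chosen as high with a ventral receptor meet above the product in a mix of both classes. These counts over all mature OSNs are therefore a description. Among ventral-receptor cells of the controls alone the excess of *Cidea* with *Phospho1* was smaller, with 49 cells against 41.1 and 27 against 25.5. In swap replicate 2 there was none, with 6 against 7.33, and no statement is made for the other libraries.

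*Rprm* and *Etv4* were found together from the immature stage on. In late immature OSNs a cell with *Etv4* also held *Rprm* in 37 of 40 and 8 of 8 cells of the controls, 29 of 30 and 11 of 12 of the swap libraries, 25 of 31 of the gg8-tTA control and 13 of 15 of *tetOP2*, when *Rprm* was found in 285 of 545 cells in control replicate 1 and 252 of 613 in swap replicate 1. A mix of receptor classes can raise such counts. In control replicate 1 *Rprm* was found in 52 of 62 late immature OSNs with a ventral and 50 of 107 with a dorsal receptor. The part of the receptor class in this pair was not tested. In mature OSNs *Rprm* and *Etv4* were together in 9 cells against 0.648, 7 against 0.566, 7 against 0.779 and, in swap replicate 2, 0 against 0.0439 cells. In cells of the mature cluster with a UMI of *Rprm* the late immature markers were 1.06 to 1.29 times those of cells without it, over the 6 libraries, and in cells with *Phospho1* 0.665 to 0.885 times, and the part of maturity in the pairs was not tested. At least 3 of the 7 genes were found in 30.5% and 15% of ventral-receptor OSNs of the controls, given as a description since the controls chose the genes. The share was 37.0% and 4.76% in the swap libraries, 28.2% in the gg8-tTA control and 28.6% in *tetOP2*. With a dorsal receptor it was 2.46% to 7.74% of cells over the 6 libraries.

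Over single receptors the genes also parted. In the controls 13 receptors were chosen by at least 10 mature OSNs. *Cidea* ranged from 0 CPM with *Olfr1247* (11 cells) to 822 CPM with *Olfr536* (10 cells), both at the ventral end of the scale. *Rprm* was at 650 CPM with *Olfr309*, from 97 UMIs in 10 cells, and at 0 CPM with 8 of the 13 receptors, among them *Olfr1348*, the most ventral. *Pdlim1* was highest with *Olfr536*, at 375 CPM, and *Mdga2* was at 98.6 CPM with *Olfr1247*. As a description over the 13 receptors, which share libraries, log2(CPM + 10) of *Cidea* correlated with that of *Phospho1* at r = 0.933, with *Pdlim1* at 0.738 and with *Rprm* at 0.627, and *Rprm* with *Pdlim1* at 0.217. Of 5118 genes, with the members left out of the ranking, the 3 most like *Cidea* were *Nrp1* (r = 0.931), *Abcg1* (0.903) and *Atp5j2* (0.896). For *Rprm* they were *Trp53i11* (0.932), *Pde4d* (0.917) and *Necab1* (0.820), for *Pdlim1* *Mlxip* (0.895), *Echdc1* (0.827) and *Casz1* (0.827), for *Phospho1* *Hdac11* (0.888), *2010204K13Rik* (0.881) and *Nrp1* (0.864), and for *Mdga2* *Sec61b* (0.890), *Ifi27* (0.889) and *Galnt14* (0.842). The highest of 5118 values of r over 13 receptors are high in part because they were picked as the highest, and none was tested. *Rprm* had 122 UMIs over these receptors, 97 of them with *Olfr309*, and *Mdga2* had 51. *Etv4* and *Tcf15* had too few UMIs for this.

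Outside the neuron lineage the genes were also found in other cell types, over the 4 swap and control libraries (mean ± SD, n = 4). *Cidea* was at 91.8 ± 21.4 CPM in ciliated respiratory cells, below the 194 ± 61.6 CPM of mature OSNs. *Phospho1* was at 363 ± 139 CPM in an unnamed cluster led by *Col1a2*, above the 134 ± 32.6 CPM of mature OSNs. *Pdlim1* was at 102 ± 12.4 CPM in sustentacular and 98.4 ± 54.2 CPM in endothelial cells, which do not differ beyond their spread, against 37.6 ± 26.1 CPM in mature OSNs. *Mdga2* was at 30.9 ± 13.0 CPM in ensheathing glia and 14.9 ± 7.42 CPM in mature OSNs. *Etv4* was at 18.5 ± 12.9 CPM in microvillar cells of the *Ascl3* kind, near the 21.3 ± 4.88 CPM of late immature OSNs, and *Tcf15* at 16.4 ± 11 CPM in endothelial cells, near the 19.1 ± 8.84 CPM of the *Tex15* cluster. *Rprm* led in late immature OSNs (487 ± 103 CPM), then the *Tex15* cluster (226 ± 45.4 CPM) and precursors (192 ± 81.6 CPM), of which the last 2 do not differ beyond their spread, and outside the lineage it was at 21.1 ± 23.1 CPM in microvillar cells of the *Trpm5* kind, with 0 CPM in swap replicate 1.

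The genes around the members were read from lists that had been chosen with earlier results known. Between late immature and mature OSNs 22.2% of all genes were called higher and 19.2% lower, which is the background for the counts of each list. There 0 of the 10 p53 and cell cycle arrest genes tested were called higher and 5 lower, as *Rprm* was, with a median log2 fold change of -0.65 against 0.01 over all genes. *Cdkn1b* fell by 4.68 and *Cdkn1c* by 3.42 on the log2 scale, and *Btg2* by 1.44, all of them restraints on cell division. Of 10 lipid droplet genes, 2 were called higher and 3 lower, the droplet coat genes *Plin2* (-3.46) and *Plin3* (-1.25) among the latter. Of 11 FGF-ERK response genes, 3 were higher, with *Spred1* (1.44), and 3 lower, with *Dusp4* (-2.60) and *Fosl1* (-3.97). Of 5 synaptic partners of MDGA proteins, 3 were lower, with *Nrxn2* (-1.94) and *Nlgn2* (-1.30). Of 11 phosphate and phospholipid headgroup genes, 2 were higher, with *Enpp1* (2.67), and 2 lower, with *Smpd3* (-4.01), and of 8 paralogs 1 was higher, *Etv5* (1.05), and 2 lower, with *Pdlim7* (-3.34).

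Between receptor classes, where 0.440% of all genes were called in mature OSNs of the swap libraries and 1.84% in late immature OSNs, calls in lists of this size are few. In mature OSNs of the swap libraries *Cdkn1a* of the p53 list was lower with a ventral receptor (-0.66, edgeR adjusted p = 0.0419), and 0 genes of the lipid droplet, FGF-ERK, MDGA partner, phosphate and paralog lists were called, of 2 to 8 tested in each. *Nrxn2* was higher with a ventral receptor in late immature OSNs (0.69, edgeR adjusted p = 0.0089). The markers that had placed the receptors were called as 4 higher and 3 lower of 9 in the former and as 5 higher and 2 lower of 7 in the latter. Between swap and control, 0 genes of any list were called by edgeR in the 3 comparisons.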

How the data were processed

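The deposited count matrices hold raw UMI counts per gene and cell barcode, which the authors made with Cell Ranger (version 3.1.0 in the headers of 4 of 6 matrices) on mm10 with introns included. Part of the genotype labels and 1 gene of the lists are not reported here. Barcodes under 1000 UMIs or 500 genes were dropped, which left 57.5% to 100% of the barcodes of a library, and predicted doublets were then removed at 0.8% per 1000 cells. Cells were clustered in scanpy 1.11.5 (2000 variable genes without OR genes and the 7 genes studied, 15 neighbours, resolution 1.5) and named from marker lists. UMIs were summed per library, stage and receptor class and tested with edgeR 4.0.16 (quasi-likelihood, TMM, filterByExpr, Benjamini-Hochberg over all genes tested), and a gene was called at adjusted p under 0.05 and a log2 fold change over 0.58 in size, with DESeq2 1.42.0 as an alternative. On counts simulated for the comparison of swap with control in mature OSNs, 184 of 200 changed genes were recovered. Those counts were drawn with a single fixed spread for all genes, so the number recovered does not measure power on the real libraries. There the same test called 0 of 12206 genes, and so did not call *Cbx1*. The labels do not say what the replicates share, so p-values measure the spread between these libraries. The genes and lists were chosen with earlier results of these data known, and the genes named in the text are the 7, for each the 3 most like it over receptors, and at most 3 called genes per list.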

Additional observations from a re-analysis of the deposited data

Results flagged for a closer look

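In globose basal cells *Etv4* of swap replicate 2, at 2.07 CPM from 2 UMIs, lay apart from the other 3 swap and control libraries at 5.62 to 5.71 CPM. In the *Calb2* cluster *Tcf15* of swap replicate 2, at 14.0 CPM, lay above the other 3 libraries at 6.35 to 7.18 CPM. Both were picked out by Dixon's test, which compares the gap of the lowest or highest of 4 libraries with their whole range. Of 33 sets of 4 libraries tested, 2 were picked out, and chance alone picks out about 1 in 20.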

How the results depend on the processing

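Of 596 alternative values of the 7 genes, 533 kept their direction and their side of the threshold, 20 lost the call, 8 gained it and 35 changed sign, and 3 had no adjusted p. The steps from precursors to early immature OSNs and from early to late immature OSNs, with their alternatives, were not run, because no cluster of the swap and control libraries met the rule for the name early immature, and leaving out a swap library leaves no residual degrees of freedom for the comparison of receptor classes in the swap libraries. *Etv4* and *Tcf15* were too low to be tested by receptor class in mature OSNs of the swap libraries. The cause of the changes below was not tested.

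Counts of genes called moved as follows. From the *Calb2* cluster to mature OSNs 822 genes were called without the library as a replicate block, against 1342. Between swap and control in mature OSNs 0 genes were called, against 167 by DESeq2, 90 without a filter on low counts and 174 to 246 with 1 library left out. With a dorsal receptor 18 were called, against 29 by DESeq2, 187 without a filter, 11 with receptors of at least 3 UMIs, 47 with the replicate number as a block and 47 to 180 with 1 library left out. With a ventral receptor 18 were called, against 5 without a filter, 53 with the replicate block and 61 to 88 with 1 library left out. Between receptor classes in the swap libraries 38 were called, against 6 by DESeq2, 88 without a filter, 2 without the block, 667 in cells gated on *Omp* and 240 with a wider ventral class. In late immature OSNs 118 were called, against 28 by DESeq2, 18 without the block, 43 in the swap libraries alone and 54 to 119 with 1 library left out. The replicate numbers are shared by the libraries without anything in the labels that pairs them. Bowman gland cells numbered 183 and 128 in replicate 1 of control and swap and 2 and 8 in replicate 2. Neutrophils, at 108 and 318 against 225 and 385, did not split so. In mature OSNs all members but *Mdga2* moved the same way from replicate 1 to replicate 2 in control and swap. What such libraries share was not tested.

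Values that changed sign were mostly near 0. From precursors to the *Tex15* cluster *Pdlim1* was at 0.0004 by DESeq2. Between swap and control with a dorsal receptor, *Cidea* (-0.32) and *Phospho1* (-0.31) changed sign in cells gated on *Omp*. With a ventral receptor *Cidea* did so without a filter (-0.0271), with receptors of at least 3 UMIs (-0.0447) and with the replicate block (-0.0402), and *Rprm* with the *Omp* gate (-0.41) and the replicate block (-0.36). With 1 library left out the log2 fold changes ran from -0.45 to 0.18 (*Tcf15*, *Calb2* cluster to mature), -1.53 to 0.44 (*Phospho1*, globose basal cells to precursors), -0.29 to 0.24 (*Etv4*, late immature to *Calb2* cluster) and -0.27 to 0.18 (*Pdlim1*, precursors to *Tex15* cluster). Between swap and control in mature OSNs they ran from -0.79 to 0.12 for *Cidea*, -2.82 to 0.0206 for *Etv4*, -1.66 to 0.0852 for *Pdlim1*, -0.53 to 0.35 for *Phospho1* and -2.54 to 0.57 for *Rprm*. With a dorsal receptor they ran from -0.23 to 0.56 for *Cidea*, -2.62 to 0.23 for *Etv4*, -1.09 to 0.69 for *Pdlim1*, -0.27 to 0.48 for *Phospho1* and -1.84 to 0.66 for *Rprm*. With a ventral receptor they ran from -0.54 to 0.39 for *Cidea*, -2.59 to 0.0571 for *Etv4*, -0.38 to 0.16 for *Phospho1* and -4.32 to 1.10 for *Rprm*.

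Shares of cells in percentage points moved without thinning. For *Olfr17* cells less other *tetOP2* cells they were 4.05 for *Cidea*, -12.1 for *Rprm*, 12.6 for *Mdga2*, -5.96 for *Etv4* and -5.53 for *Tcf15*, and *Rprm* was at -11.9 in cells gated on *Omp*. For swap less control with a dorsal receptor they were -4.36 for *Mdga2* and 1.00 for *Tcf15*.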

Other observations

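*Cidea*, *Rprm* and *Phospho1* were also counted by receptor in the unnamed *Calb2* cluster, between late immature and mature OSNs. With a dorsal and a ventral receptor *Cidea* was at 50.1 and 400 CPM in control replicate 1, 33.3 and 109 CPM in control replicate 2, 65.6 and 150 CPM in swap replicate 1 and 60.7 and 190 CPM in swap replicate 2. It was the higher with a ventral receptor in 4 of 4 libraries. *Rprm* was at 134 and 455 CPM, 133 and 367 CPM, 131 and 80.6 CPM and 147 and 345 CPM in the same order, the higher in 3 of 4 libraries. *Phospho1* was at 27.4 and 131 CPM, 30.5 and 25 CPM, 34 and 46.1 CPM and 37.7 and 69.0 CPM. The ventral values rest on 41, 8, 23 and 4 cells, and no test was made of them.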
